A study of Mus musculus with 18 samples.

Results

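Genes of brown and white adipocytes were followed through a mouse leukemia series: 36 genes in all, of which 35 had a probe set among the 20672 genes of the array and Cpt1b had none. The members were chosen by their measured signals in these same arrays, because adipocyte genes differed between samples. Their differences between groups are therefore a description, with no test. Expression was measured on 18 Affymetrix arrays, 1 per mouse, in 3 groups: 9 arrays of leukemic spleen from Idh2R140Q/NHD13 mice, 6 of leukemic thymus from SCL/LMO1 mice and 3 of thymus from wild-type mice 623, 627 and 631. Idh2R140Q/NHD13 mice combine a mutant mitochondrial isocitrate dehydrogenase with a NUP98-HOXD13 fusion and had T-ALL (T-cell acute lymphoblastic leukemia) of a DN1/DN2 stage, which resembles early thymocytes without CD4 and CD8. SCL/LMO1 mice carry SCL and LMO1 transgenes and had cortical T-ALL with both CD4 and CD8. Promoters, strain background, age and any agent given are not stated in the sources used here. Genotype and tissue go together for the Idh2R140Q/NHD13 spleens, so those cannot be told apart.

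White adipocytes store triglyceride in a single large droplet and secrete hormones such as adiponectin and leptin. Brown adipocytes hold many small droplets and many mitochondria, and their uncoupling protein UCP1 lets the proton gradient run down as heat. Both draw on fatty acid uptake, fatty acid synthesis and triglyceride assembly, and both need the nuclear receptor PPARγ. Fat depots with both cell types lie in the chest beside the thymus. In bulk tissue, fewer adipocytes and less RNA per adipocyte cannot be told apart.

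The promoters of Ucp1, Adipoq and Cfd are shown because these genes carry the main contrast among the members, in which a brown fat gene and general fat genes parted in a leukemic spleen. Each window holds 250 bases before and 50 after the start of the gene on the plus strand, from RefSeq for build GRCm38.p6: chr8:83290098-83290397 for Ucp1, chr16:23146286-23146585 for Adipoq and chr10:79890603-79890902 for Cfd. Capitals mark matches on either strand to AGGTCA (the core of nuclear receptor sites), CCAAT (the box bound by NF-Y), TATAAA (the TATA box) or TGACG (the core of the cAMP response element), counted wherever they occur, overlaps included.
Ucp1: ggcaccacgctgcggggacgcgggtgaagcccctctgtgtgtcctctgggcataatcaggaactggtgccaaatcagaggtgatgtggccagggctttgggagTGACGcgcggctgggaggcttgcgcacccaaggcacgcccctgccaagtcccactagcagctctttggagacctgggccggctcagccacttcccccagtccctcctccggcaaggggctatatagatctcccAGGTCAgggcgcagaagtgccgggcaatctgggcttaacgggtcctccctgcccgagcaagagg
Adipoq: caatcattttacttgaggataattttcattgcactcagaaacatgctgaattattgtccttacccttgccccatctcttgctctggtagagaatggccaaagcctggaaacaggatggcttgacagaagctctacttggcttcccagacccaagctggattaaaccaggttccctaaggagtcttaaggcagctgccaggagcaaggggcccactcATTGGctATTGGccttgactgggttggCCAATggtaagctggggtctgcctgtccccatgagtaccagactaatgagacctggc
Cfd: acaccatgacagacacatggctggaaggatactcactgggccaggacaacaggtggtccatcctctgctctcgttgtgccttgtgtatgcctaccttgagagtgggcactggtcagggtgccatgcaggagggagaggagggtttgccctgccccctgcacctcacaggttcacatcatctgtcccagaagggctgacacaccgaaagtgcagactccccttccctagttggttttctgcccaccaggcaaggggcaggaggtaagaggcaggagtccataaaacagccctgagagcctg

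The Ucp1 window held 1 TGACG and 1 AGGTCA, the Adipoq window 3 CCAAT matches, and the Cfd window none of the 4 motifs. Windows were found for 24 of the 35 measured members. AGGTCA lay in windows of 6 of the 24 members, CCAAT in 8, TATAAA in 3 and TGACG in 7. Over all 27025 genes with a window the shares were 18.1% for AGGTCA, 41.1% for CCAAT, 15.7% for TATAAA and 23.1% for TGACG. Over their 32851 windows, some genes having several, the shares were 16.3%, 37.4%, 13.6% and 20.8% in the same order. No window was used for Elovl3, Cdo1, Slc2a4, Cidea, Fabp4, Adrb3, Scd1, Gpd1, Dgat2, Lpl and Dgat1.

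All values are log2 signals, so 1 unit is a factor of 2, and arrays had medians of 5.89 to 6.01. Without detection calls, values near 4 or 5 cannot be separated from background, and levels are not compared between genes. Between Idh2R140Q/NHD13 mice 546 and 550 the root mean square difference was 0.212 log2 units, less than each of the other 152 pairs (at least 0.445). Both arrays were averaged as 1 sample, which left 8 Idh2R140Q/NHD13, 6 SCL/LMO1 and 3 wild-type samples. SCL/LMO1 mice 7114/1 and 7114/3 were the next closest pair and stayed separate. Double-positive thymocyte genes averaged 10.03 to 11.66 in SCL/LMO1 samples and 11.12 to 11.77 in wild-type samples. Erythroid genes averaged 9.40 to 12.8 in the Idh2R140Q/NHD13 spleens.

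Adipocyte genes differed between the groups and also between single mice of a group. Wild-type mouse 627 had the highest signal of all 17 samples for 33 of 35 members. Idh2R140Q/NHD13 mouse 555 was highest for the other 2, Pck1 and Ppargc1a. The wild-type mice stood in the order 627, 623, 631 in 33 of 35 members, Ppara and Dio2 being the exceptions. Within the leukemias, mouse 555 was highest of the Idh2R140Q/NHD13 samples for 25 of 35 members and mouse 3767 highest of the SCL/LMO1 samples for 17 of 35. Every member ranged over at least 2 log2 units across samples.

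**Figure D1:**
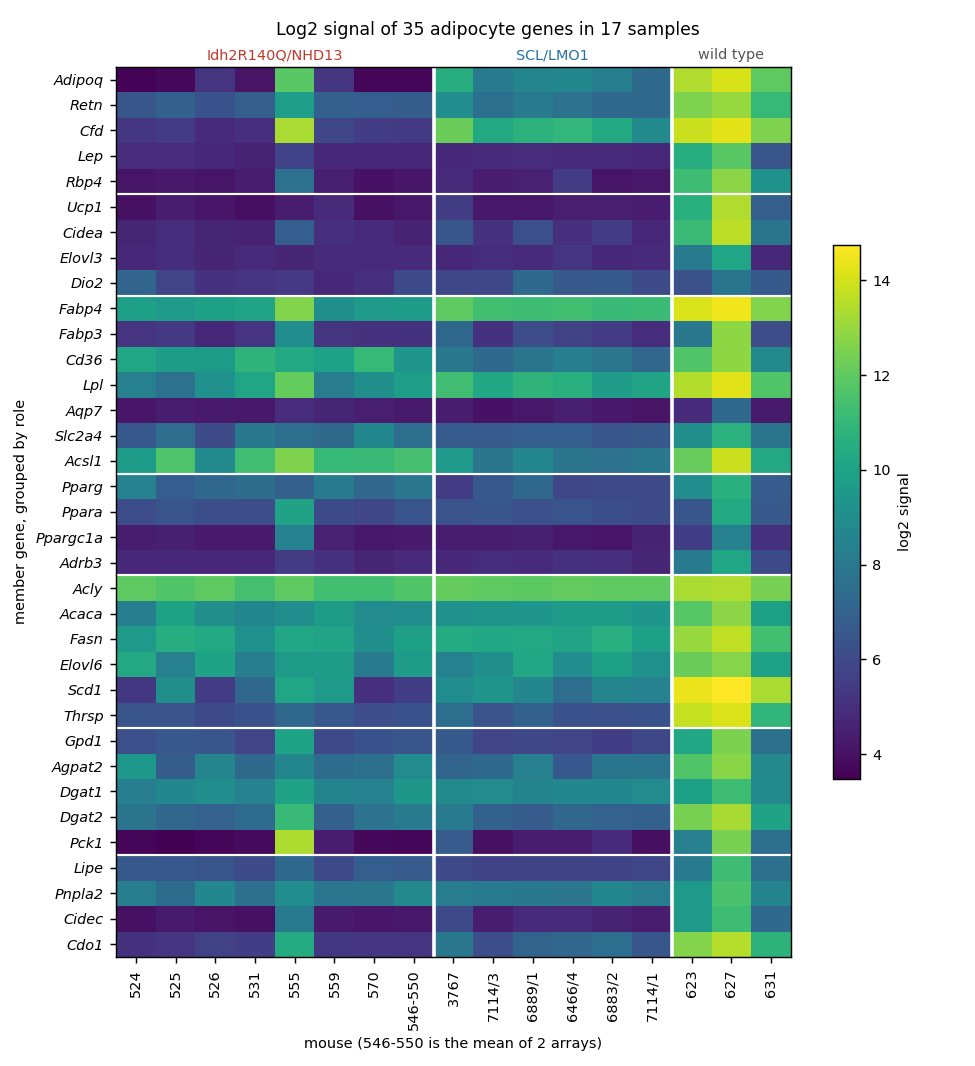
Log2 signal (colour) of the 35 measured members (rows, grouped by role) in 17 samples (columns, by mouse), with the 8 Idh2R140Q/NHD13 samples on the left, the 6 SCL/LMO1 samples in the middle and the 3 wild-type samples on the right. Mouse 555 stands out in the Idh2R140Q/NHD13 block, and mouse 627 is brightest for 33 of 35 genes.

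Secreted adipocyte products were high in all wild-type thymi, apart from Lep in mouse 631. Some were lower but present in SCL/LMO1 thymi. In most Idh2R140Q/NHD13 spleens all but Retn lay near the lowest signals. Adipoq, which encodes the hormone adiponectin, stood between 3.59 and 11.87 (median 3.91) in Idh2R140Q/NHD13 samples, between 7.38 and 10.52 (median 8.44) in SCL/LMO1 samples, and at 13.39, 14.06 and 11.96 in wild-type thymi (mice 623, 627 and 631, in this order throughout). Only mouse 555, at 11.87, lay above 5.25 among the Idh2R140Q/NHD13 spleens, and it lay below the lowest wild-type thymus. Cfd, encoding the complement protease adipsin, stood between 4.84 and 13.32 (median 5.43) in Idh2R140Q/NHD13 samples, between 8.85 and 12.24 (median 10.53) in SCL/LMO1 samples, and at 13.83, 14.30 and 12.56 in wild-type thymi. Mouse 555 reached 13.32 and overlapped the wild-type range, whereas the other 7 spleens stayed at 5.88 or below and under every SCL/LMO1 thymus. Retn, encoding resistin, stood between 6.31 and 9.80 (median 6.87) in Idh2R140Q/NHD13 samples, between 7.34 and 9.00 (median 7.66) in SCL/LMO1 samples, and at 12.56, 13.01 and 11.03 in wild-type thymi. Its wild-type values lay above all leukemic ones.

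Leptin and the retinol carrier behaved differently from adiponectin and adipsin in the SCL/LMO1 thymi. Lep stood between 4.62 and 5.77 (median 4.79) in Idh2R140Q/NHD13 samples, between 4.72 and 4.91 (median 4.82) in SCL/LMO1 samples, and at 10.51, 11.88 and 6.46 in wild-type thymi. The SCL/LMO1 values hardly differed from each other at the bottom of the scale, and mouse 631 lay far below the other wild-type mice. Rbp4, the retinol-binding protein, stood between 4.05 and 7.71 (median 4.20) in Idh2R140Q/NHD13 samples, between 4.12 and 5.44 (median 4.45) in SCL/LMO1 samples, and at 11.24, 12.79 and 9.25 in wild-type thymi. Apart from mouse 555, at 7.71, both leukemias lay low and the wild-type mice were clearly apart.

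Of the brown-specific members, Ucp1, Cidea and Elovl3 were high in wild-type mice 627 and 623 and low in nearly all leukemic samples. Ucp1, the uncoupling protein, stood between 3.93 and 4.86 (median 4.17) in Idh2R140Q/NHD13 samples, between 4.23 and 5.54 (median 4.38) in SCL/LMO1 samples, and at 10.63, 13.41 and 6.89 in wild-type thymi. The wild-type mice differed widely from each other, yet each lay above every leukemic sample, mouse 555 included. Cidea, a lipid droplet protein of brown fat in mice, stood between 4.59 and 6.85 (median 4.76) in Idh2R140Q/NHD13 samples, between 4.76 and 6.51 (median 5.29) in SCL/LMO1 samples, and at 11.17, 13.64 and 7.86 in wild-type thymi. Its wild-type values also lay above the leukemic ones, with mice 555 and 3767 highest in their groups.

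Elovl3, a fatty acid elongase of brown fat, stood between 4.69 and 4.94 (median 4.86) in Idh2R140Q/NHD13 samples, between 4.74 and 5.18 (median 4.87) in SCL/LMO1 samples, and at 8.10, 10.11 and 4.73 in wild-type thymi. Mouse 631 was as low as the leukemic samples, so that only mice 623 and 627 lay apart. Dio2, which activates thyroid hormone, stood between 4.74 and 7.15 (median 5.28) in Idh2R140Q/NHD13 samples, between 5.91 and 7.32 (median 6.37) in SCL/LMO1 samples, and at 6.28, 7.88 and 6.68 in wild-type thymi. All 3 groups overlapped, and the 4 brown-specific genes did not move as a block: in wild-type mouse 623 Dio2 was below the highest value of both leukemias.

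**Figure D2:**
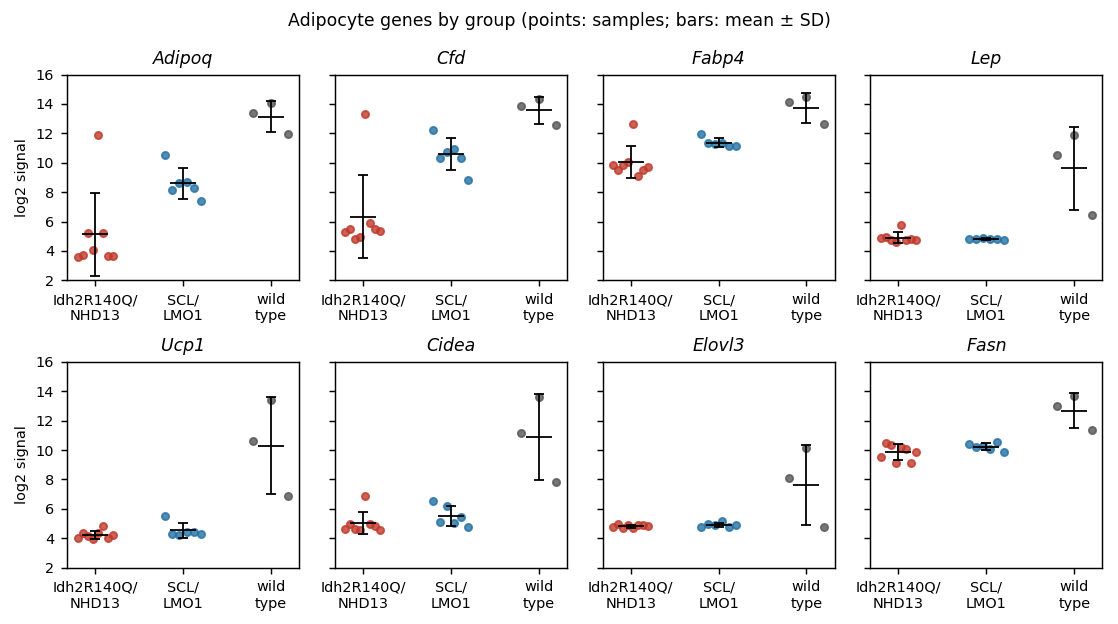
Log2 signal (vertical axis) of 8 members in 8 Idh2R140Q/NHD13, 6 SCL/LMO1 and 3 wild-type samples, left to right in each panel, with points for samples and bars for mean ± SD. Adipoq and Cfd lie between the other groups in SCL/LMO1, while Lep, Ucp1 and Elovl3 lie at the bottom of the scale in both leukemias except for single samples.

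Genes for fatty acid handling did not share a single pattern. Fabp4, the fatty acid binding protein of adipocytes that macrophages and endothelium also make, stood between 9.08 and 12.61 (median 9.79) in Idh2R140Q/NHD13 samples, between 11.12 and 11.95 (median 11.29) in SCL/LMO1 samples, and at 14.10, 14.50 and 12.61 in wild-type thymi. Mouse 555 reached the level of mouse 631, and the other spleens lay under all SCL/LMO1 thymi. Lpl, the lipase that frees fatty acids from lipoproteins, stood between 7.68 and 12.10 (median 9.14) in Idh2R140Q/NHD13 samples, between 9.72 and 11.31 (median 10.40) in SCL/LMO1 samples, and at 13.47, 14.23 and 11.71 in wild-type thymi. Leukemic groups overlapped, and mouse 555 again lay within the wild-type range. Fabp3, the fatty acid binding protein of heart and muscle, stood between 4.77 and 9.00 (median 5.16) in Idh2R140Q/NHD13 samples, between 4.96 and 7.24 (median 5.58) in SCL/LMO1 samples, and at 8.01, 12.82 and 6.16 in wild-type thymi. Mouse 627 was far above mice 623 and 631, which both lay within the leukemic range that mouse 555 topped.

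Cd36 and Acsl1 ran the other way between the leukemias. Cd36, a fatty acid transporter also carried by macrophages, stood between 9.38 and 11.03 (median 10.06) in Idh2R140Q/NHD13 samples, between 7.20 and 8.30 (median 7.87) in SCL/LMO1 samples, and at 11.69, 12.82 and 8.84 in wild-type thymi. Every Idh2R140Q/NHD13 spleen lay above every SCL/LMO1 thymus, and mouse 631 lay between them. Acsl1, which couples fatty acids to coenzyme A, stood between 8.85 and 12.58 (median 11.20) in Idh2R140Q/NHD13 samples, between 7.68 and 9.54 (median 7.90) in SCL/LMO1 samples, and at 12.12, 13.84 and 10.31 in wild-type thymi. The groups overlapped slightly, and mouse 631 lay inside the Idh2R140Q/NHD13 range.

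Slc2a4, the insulin-regulated glucose transporter GLUT4, stood between 6.10 and 8.73 (median 7.53) in Idh2R140Q/NHD13 samples, between 6.45 and 6.85 (median 6.74) in SCL/LMO1 samples, and at 9.07, 10.68 and 7.80 in wild-type thymi. Wild-type values exceeded all SCL/LMO1 values but not all Idh2R140Q/NHD13 values. Aqp7, a glycerol channel of adipocytes, stood between 4.17 and 4.92 (median 4.33) in Idh2R140Q/NHD13 samples, between 4.02 and 4.42 (median 4.23) in SCL/LMO1 samples, and at 4.86, 7.34 and 4.30 in wild-type thymi. Only mouse 627 lay clear of the bottom of the scale.

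Receptors and regulators were highest in mouse 627, apart from Ppargc1a, and mouse 555 stood out in Ppara and Ppargc1a. Pparg, encoding PPARγ, stood between 6.84 and 8.50 (median 7.39) in Idh2R140Q/NHD13 samples, between 5.47 and 7.31 (median 6.06) in SCL/LMO1 samples, and at 9.00, 10.63 and 6.74 in wild-type thymi. Mouse 631 lay below every Idh2R140Q/NHD13 sample and inside the SCL/LMO1 range, and mice 623 and 627 lay above all leukemic samples. Ppara, the receptor that drives fatty acid oxidation, stood between 5.87 and 9.99 (median 6.20) in Idh2R140Q/NHD13 samples, between 6.12 and 6.51 (median 6.30) in SCL/LMO1 samples, and at 6.51, 10.34 and 6.62 in wild-type thymi. Mice 555 and 627 stood far above the rest, which lay at 6.62 or below. Ppargc1a, the coactivator PGC-1α of mitochondrial genes, stood between 4.22 and 8.50 (median 4.32) in Idh2R140Q/NHD13 samples, between 4.13 and 4.59 (median 4.35) in SCL/LMO1 samples, and at 5.55, 8.41 and 5.11 in wild-type thymi. The same 2 mice stood apart, and mouse 555 was the higher. Adrb3, the β3-adrenergic receptor of adipocytes, stood between 4.65 and 5.47 (median 4.79) in Idh2R140Q/NHD13 samples, between 4.68 and 5.09 (median 4.90) in SCL/LMO1 samples, and at 8.06, 10.13 and 6.01 in wild-type thymi. Here mouse 555, at 5.47, was the highest leukemic sample but still low, and all wild-type mice lay above the leukemic samples.

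Fatty acid synthesis genes differed in how far the leukemic samples lay from the wild-type thymi. Acly, which makes cytosolic acetyl-CoA, stood between 11.33 and 11.97 (median 11.69) in Idh2R140Q/NHD13 samples, between 11.93 and 12.10 (median 11.95) in SCL/LMO1 samples, and at 13.32, 13.41 and 12.46 in wild-type thymi. Wild-type values lay above all others by a small margin. Acaca, acetyl-CoA carboxylase, stood between 8.28 and 9.98 (median 9.00) in Idh2R140Q/NHD13 samples, between 9.17 and 9.66 (median 9.39) in SCL/LMO1 samples, and at 11.83, 12.78 and 9.87 in wild-type thymi. Mouse 631 overlapped the Idh2R140Q/NHD13 range. Fasn, fatty acid synthase, stood between 9.10 and 10.50 (median 9.97) in Idh2R140Q/NHD13 samples, between 9.86 and 10.55 (median 10.24) in SCL/LMO1 samples, and at 12.99, 13.68 and 11.34 in wild-type thymi. The leukemias overlapped, and wild-type values lay above both.

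Elovl6, which extends palmitate, stood between 8.06 and 10.30 (median 9.65) in Idh2R140Q/NHD13 samples, between 8.44 and 10.19 (median 9.12) in SCL/LMO1 samples, and at 12.22, 12.71 and 9.91 in wild-type thymi. Mouse 631 lay inside both leukemic ranges. Scd1, the desaturase that makes oleate, stood between 5.03 and 10.15 (median 6.42) in Idh2R140Q/NHD13 samples, between 7.52 and 9.35 (median 8.65) in SCL/LMO1 samples, and at 14.44, 14.75 and 13.31 in wild-type thymi. The Idh2R140Q/NHD13 spleens split widely, with mice 525, 555 and 559 at 9.11 or above and the others at 7.29 or below. Thrsp, the lipogenic protein Spot 14, stood between 6.03 and 7.29 (median 6.35) in Idh2R140Q/NHD13 samples, between 6.23 and 7.54 (median 6.33) in SCL/LMO1 samples, and at 13.76, 14.18 and 10.88 in wild-type thymi. Neither leukemia came near the wild-type range.

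Mouse 555 also stood out in genes of triglyceride assembly and glycerol supply. Pck1, which supplies glycerol in fat and makes glucose in liver and kidney, stood between 3.48 and 13.38 (median 3.71) in Idh2R140Q/NHD13 samples, between 3.94 and 6.70 (median 4.40) in SCL/LMO1 samples, and at 8.39, 12.45 and 7.60 in wild-type thymi. The value of mouse 555 exceeded every wild-type value. Gpd1, which makes glycerol phosphate, stood between 5.84 and 10.04 (median 6.39) in Idh2R140Q/NHD13 samples, between 5.53 and 6.67 (median 5.86) in SCL/LMO1 samples, and at 10.26, 12.51 and 7.66 in wild-type thymi. Mouse 555 lay between the wild-type mice 631 and 623. Dgat2, which completes triglyceride, stood between 6.92 and 11.10 (median 7.60) in Idh2R140Q/NHD13 samples, between 6.76 and 8.13 (median 6.99) in SCL/LMO1 samples, and at 12.46, 13.26 and 9.97 in wild-type thymi. The same mouse again overlapped the wild-type range.

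Agpat2, which acylates lysophosphatidic acid, stood between 6.81 and 9.50 (median 8.11) in Idh2R140Q/NHD13 samples, between 6.57 and 8.41 (median 7.58) in SCL/LMO1 samples, and at 11.69, 12.77 and 8.81 in wild-type thymi. Its Idh2R140Q/NHD13 values reached above mouse 631. Dgat1, the second enzyme for the last step of triglyceride assembly, stood between 8.32 and 9.98 (median 8.66) in Idh2R140Q/NHD13 samples, between 8.57 and 8.94 (median 8.82) in SCL/LMO1 samples, and at 9.88, 11.26 and 8.82 in wild-type thymi. Mouse 627 alone was above all leukemic samples.

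Among the lipolysis and droplet genes, Lipe, hormone-sensitive lipase, stood between 5.96 and 7.34 (median 6.55) in Idh2R140Q/NHD13 samples, between 5.77 and 5.99 (median 5.80) in SCL/LMO1 samples, and at 8.12, 11.27 and 7.66 in wild-type thymi. All wild-type values lay above the leukemic ones. Pnpla2, adipose triglyceride lipase, stood between 7.47 and 9.00 (median 8.13) in Idh2R140Q/NHD13 samples, between 7.94 and 8.69 (median 8.16) in SCL/LMO1 samples, and at 9.56, 11.52 and 8.55 in wild-type thymi. Mouse 631 lay inside both leukemic ranges. Cidec, a protein that enlarges lipid droplets, stood between 3.99 and 8.07 (median 4.19) in Idh2R140Q/NHD13 samples, between 4.39 and 6.00 (median 4.69) in SCL/LMO1 samples, and at 9.58, 11.26 and 7.35 in wild-type thymi. Mouse 555 lay within the wild-type range. Cdo1, which oxidises cysteine, stood between 5.14 and 10.44 (median 5.29) in Idh2R140Q/NHD13 samples, between 6.14 and 8.0 (median 7.15) in SCL/LMO1 samples, and at 12.67, 13.52 and 10.75 in wild-type thymi. Its SCL/LMO1 values lay above those of all Idh2R140Q/NHD13 mice but 555, and every wild-type value lay above both.

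The counts past the threshold repeat what the choice of members fixed. By limma, with an adjusted p under 0.05 over all 20672 genes, 2 of 35 members were called higher in Idh2R140Q/NHD13 spleens than in SCL/LMO1 thymi, against 11.7% of all genes, and 3 lower, against 12.0%. The higher ones were Cd36, by 2.35 (SE 0.47), and Acsl1, by 2.70 (SE 0.59). The lower ones were Cfd, at -4.24 (SE 1.09), Adipoq, at -3.47 (SE 1.08), and Fabp4, at -1.33 (SE 0.44). Without mouse 555 those 3 differences were -5.23, -4.44 and -1.70, and 8 members were called, against 5306 of all 20672 genes. Without mouse 3767, 531, 6466/4 or the averaged pair 546 and 550, 3 members were called.

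Against wild-type thymus, 0 of 35 members were called higher in Idh2R140Q/NHD13 (9.08% of all genes) and 27 lower (8.31%). In SCL/LMO1 against wild-type thymus 0 were called higher (5.04%) and 27 lower (6.52%), with 24 members called lower in both comparisons, which share the wild-type samples. At an unadjusted p under 0.05 by limma, 0 members were higher in either. The median difference over members was -3.18 in each, against 0.10 and 0.08 over all genes. Without mouse 627 the calls were 19 and 15. Fatty acid synthesis members were called lower 6 of 6 times in both, brown-specific members 4 of 4 in Idh2R140Q/NHD13 and 3 of 4 in SCL/LMO1, and receptors and regulators 1 of 4 and 2 of 4. Without mouse 627 the brown-specific calls were 2 of 4 in each comparison, those of fatty acid synthesis 5 of 6 in Idh2R140Q/NHD13 and 4 of 6 in SCL/LMO1, and those of receptors and regulators 1 of 4 in each. Without mouse 555 the receptors and regulators called were 3 of 4 in each. Cfd was the secreted member not called in SCL/LMO1, at -2.99 (SE 1.42).

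The means of the brown-specific and of the other members ordered mice 555 and 631 differently, although single other members went both ways. The mean of the 4 brown-specific members was 5.31 in mouse 555, 5.67 in mouse 3767, and 9.05, 11.26 and 6.54 in wild-type mice 623, 627 and 631. The mean of the 31 other members was 9.51 in mouse 555, 7.87 in mouse 3767, and 10.81, 12.36 and 9.11 in those wild-type mice. Mouse 555 thus lay above mouse 631 in the mean of other members and below it in that of brown-specific ones. Among other members its widest leads over mouse 631 were in Pck1 (13.38 against 7.60), Ppara (9.99 against 6.62) and Ppargc1a (8.50 against 5.11). Mouse 555 was lower than mouse 631 in Adipoq, Retn, Lep, Rbp4, Slc2a4, Adrb3, Agpat2, Lipe and Cdo1, and level with it in Fabp4. It was also lower in every fatty acid synthesis member, whose mean was 9.71 in mouse 555 and 11.3 in mouse 631. How far single genes carried the mean was not tested. The difference of both means was -4.19 in mouse 555, between -2.28 and -1.75 in the other 7 Idh2R140Q/NHD13 samples, between -2.20 and -1.85 in SCL/LMO1 samples, and -1.76, -1.10 and -2.57 in the wild-type mice.

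**Figure D3:**
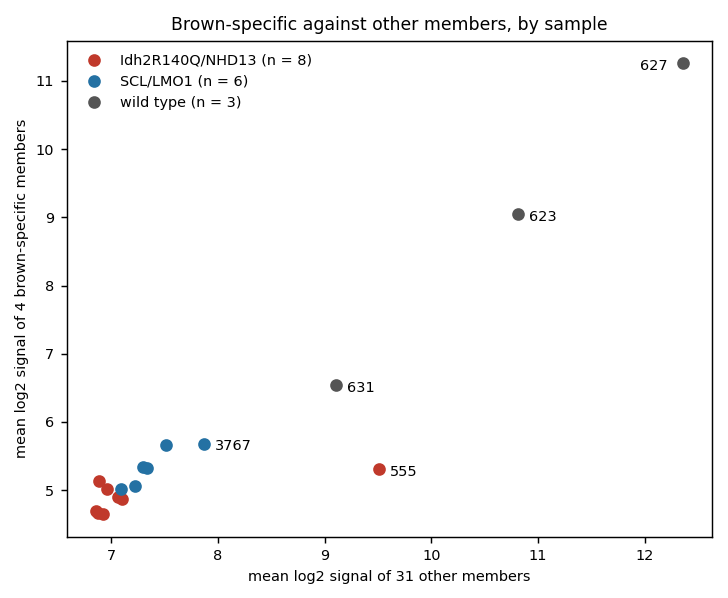
Mean log2 signal of the 4 brown-specific members (vertical axis) against that of the 31 other members (horizontal axis), 1 point per sample, for 8 Idh2R140Q/NHD13, 6 SCL/LMO1 and 3 wild-type samples. Mouse 555 lies at 9.51 on the horizontal axis and 5.31 on the vertical axis, below the line of the wild-type mice.

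Set against the median of the other 7 Idh2R140Q/NHD13 samples, mouse 555 was at least 2 units higher in 16 of 35 members, against 4.37% of all genes. Its brown-specific members had a median excess of 0.18, with Cidea the highest at 2.19, and its other members one of 1.49. Wild-type mouse 627, against the same median, was at least 2 units higher in 34 of 35 members, against 4.96% of all genes, with a median excess of 7.11 for brown-specific and 5.13 for other members. Mouse 3767 was at least 2 units above the median of the other 5 SCL/LMO1 samples in 2 of 35 members, against 0.701% of all genes.

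**Figure D4:**
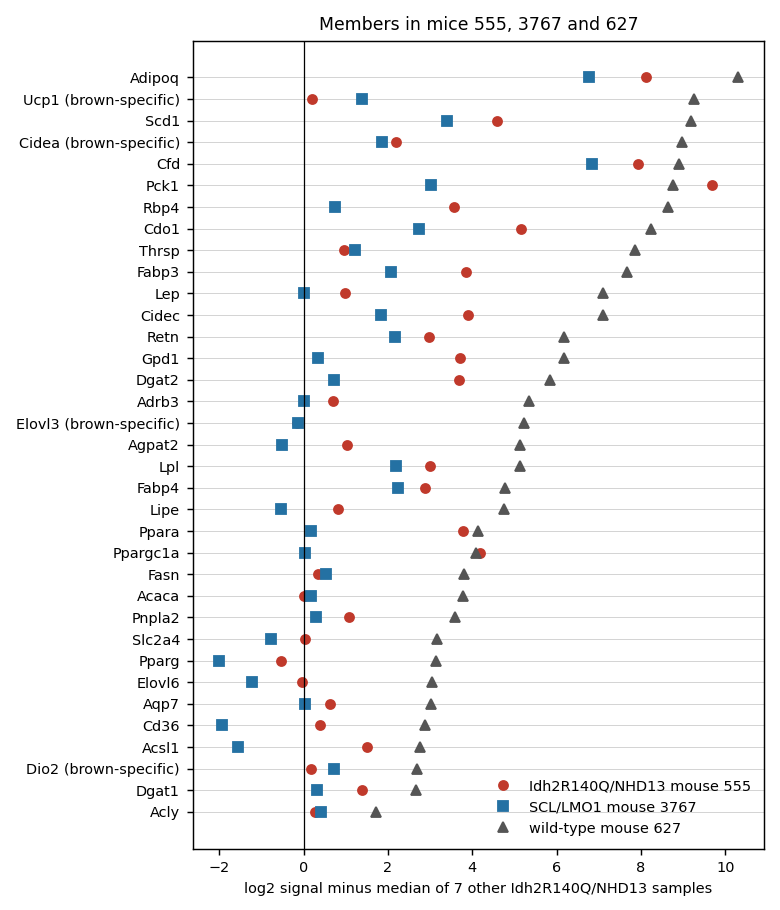
Log2 signal minus the median of the 7 Idh2R140Q/NHD13 samples other than mouse 555 (horizontal axis) for each of 35 members (rows), in Idh2R140Q/NHD13 mouse 555, SCL/LMO1 mouse 3767 and wild-type mouse 627. Brown-specific Ucp1 is at 0.20 in mouse 555 and at 9.26 in mouse 627, while Pck1 is higher in mouse 555.

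Some marker lists of other tissues were high in single samples, not always those with the highest adipocyte genes. Their part in the result was not tested. Kidney tubule genes, a list added after the values were seen, averaged 10.3 in mouse 555, against 5.06 to 5.33 in the other Idh2R140Q/NHD13 samples, 5.02 to 5.09 in SCL/LMO1 and 4.89 to 5.13 in wild-type samples. Umod, the urinary protein uromodulin, stood at 14.01 there and Miox, an oxygenase of the kidney, at 13.58. All 12 genes of that list were measured. Fatty acid oxidation genes averaged 11.5 in mouse 555 and 12.0 in mouse 627. Pck1, Ppara and Ppargc1a are also active in kidney tubules.

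In mouse 3767 the thymic epithelium list averaged 8.98, close to the wild-type range of 9.30 to 10.2 and above 5.08 to 6.00 in the other SCL/LMO1 mice. Heart muscle genes averaged 7.07 in it, against 4.58 to 5.31 in the others. Skeletal muscle genes averaged 8.63 in mouse 6889/1 and 6.67 in mouse 6883/2. Liver genes were highest in SCL/LMO1 mouse 6466/4, at 6.36, and Idh2R140Q/NHD13 mouse 555, at 6.00. Foxn1, the master regulator of thymic epithelium, was low everywhere shown, at 4.41, 4.95 and 5.12 in the wild-type mice. The wild-type mice had no muscle or kidney signal as high as these, with heart muscle lists of 4.75 to 4.99. Their skeletal muscle lists stood at 5.31, 6.07 and 5.48.

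**Figure D5:**
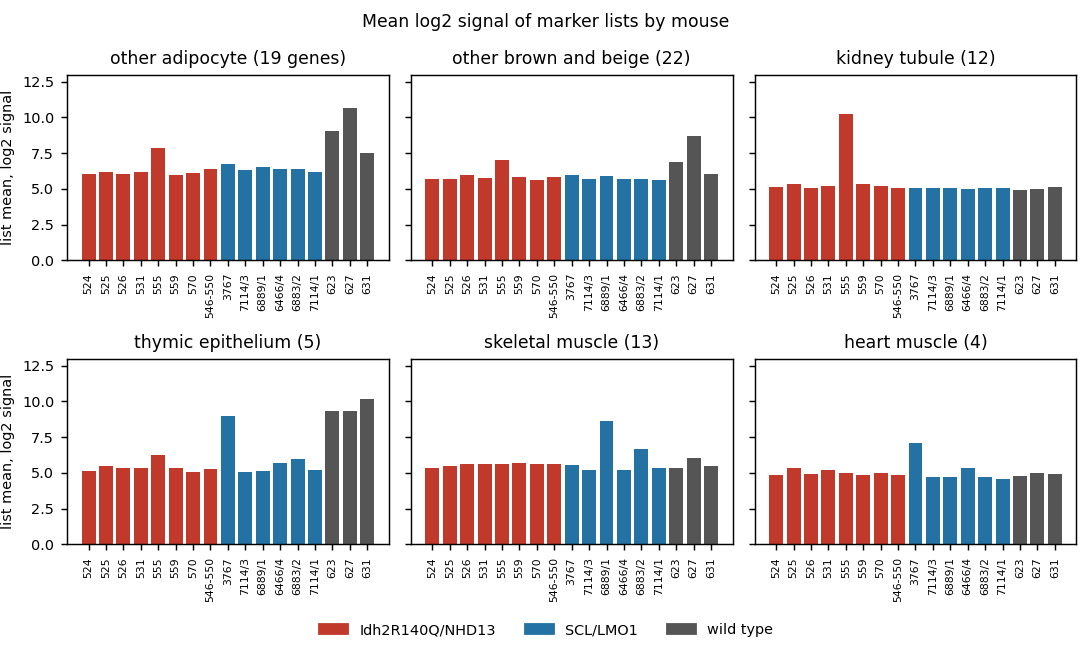
Mean log2 signal (vertical axis) of 6 gene lists in each of 17 samples (bars, by mouse), coloured by group. Adipocyte lists peak in mouse 627, the kidney tubule list in mouse 555, the skeletal muscle list in mouse 6889/1 and the heart muscle list in mouse 3767, while thymic epithelium is high in mouse 3767 and the wild-type mice.

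Other adipocyte genes, outside the members, were lower in both leukemias than in wild-type thymus. Of 19 measured, 16 fell in Idh2R140Q/NHD13 (8.31% of all genes) and 14 in SCL/LMO1 (6.52% of all genes) against wild-type thymus by limma at an adjusted p under 0.05. These shares of all genes are the same for each list that follows. Their median differences were -2.52 and -2.80, against 0.10 and 0.08 over all genes. None rose in either, also at an unadjusted p under 0.05, and without mouse 627 the falls numbered 9 and 8. Between the leukemias 0 were called by limma, and 1 was lower in Idh2R140Q/NHD13 at an unadjusted p under 0.05. Klb, a co-receptor for FGF21, fell by 2.28 in Idh2R140Q/NHD13 (adjusted p = 6.69e-05 by limma). Adig, an adipocyte protein called adipogenin, fell by 4.38 in Idh2R140Q/NHD13 (adjusted p = 7.31e-05 by limma). The list was drawn up with earlier results of these arrays known.

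Of 22 other brown and beige fat genes, 8 fell in Idh2R140Q/NHD13 and 7 in SCL/LMO1 against wild-type thymus, with medians of -0.77 and -1.13, by limma. Without mouse 627 those counts were 5 and 4. Cox8b, a subunit of cytochrome oxidase in brown fat and muscle, fell by 5.59 in Idh2R140Q/NHD13 (SE 0.67, adjusted p = 5.63e-05 by limma). Acot11 and Tmem26 were the 2 genes of 22 called higher in Idh2R140Q/NHD13 spleens than in SCL/LMO1 thymi, against 11.7% of all genes. Without mouse 627, 3 were called higher and 1 lower. The list averaged 7.01 in mouse 555, and 6.89, 8.71 and 6.05 in wild-type mice 623, 627 and 631. In this list mouse 555 thus lay above mice 623 and 631, unlike in the mean of the brown-specific members. The kidney tubule list was also high in mouse 555, at 10.3, and its part in this value was not tested.

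SREBP and lipid synthesis genes outside the members were mixed. Of 17, 1 rose and 6 fell in Idh2R140Q/NHD13, and 0 rose and 7 fell in SCL/LMO1, against wild-type thymus by limma, where 2 were higher at an unadjusted p under 0.05 in SCL/LMO1. Over all genes 9.08% rose in Idh2R140Q/NHD13 and 5.04% in SCL/LMO1. Without mouse 627, 3 fell in each and 0 rose (1 at an unadjusted p under 0.05 in Idh2R140Q/NHD13, 0 in SCL/LMO1, by limma). Between the leukemias 5 were higher and 3 lower in Idh2R140Q/NHD13, against 11.7% and 12.0% of all genes. Me1, malic enzyme, fell by 4.49 in Idh2R140Q/NHD13 and by 5.50 in SCL/LMO1 (adjusted p = 0.00123 and 0.00061 by limma). Mid1ip1, a partner of acetyl-CoA carboxylase, was higher by 1.60 in Idh2R140Q/NHD13 spleens than in SCL/LMO1 thymi (adjusted p = 8.46e-05 by limma).

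Of 15 fatty acid oxidation genes outside the members, 1 rose and 3 fell in Idh2R140Q/NHD13, and 0 rose and 4 fell in SCL/LMO1, against wild-type thymus by limma (0 higher in SCL/LMO1 at an unadjusted p under 0.05). Without mouse 627, the genes that fell numbered 0 in Idh2R140Q/NHD13 (1 at an unadjusted p under 0.05) and 1 in SCL/LMO1. Between the leukemias 3 of 15 were higher (11.7% of all genes) and 0 lower in Idh2R140Q/NHD13 by limma, 5 and 0 at an unadjusted p under 0.05, and 7 were higher without mouse 627. Acadl, an acyl-CoA dehydrogenase, was higher by 1.67 (adjusted p = 0.00104 by limma). Fibroblast genes also moved, with 4 of 5 lower in Idh2R140Q/NHD13 spleens than in SCL/LMO1 thymi (12.0% of all genes). Against wild-type thymus, 3 of 5 were lower in Idh2R140Q/NHD13 (8.31% of all genes) and 1 of 5 in SCL/LMO1 (6.52%). Without mouse 627 these 3 counts were 4, 2 and 1.

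The pattern was followed in other genes by correlation with the mean of Adipoq, Ucp1, Cfd and Cidea over the 17 samples, among 10695 genes whose highest sample was above 8. Gpx8, of the glutathione peroxidase family, came first at r = 0.976, and Htra1, a secreted protease, stood at 0.96. Col6a2, a collagen VI chain, BB144871, Steap4, a metalloreductase, Maob, monoamine oxidase B, Amy1, an amylase, Lum, the matrix protein lumican, and Mccc1, a carboxylase subunit, followed at 0.956 down to 0.942. All 17 points share the arrays and the 3 groups, so these values describe the samples. Gpx8 stood at 7.17 in mouse 555, 7.11 in mouse 3767 and 8.41, 9.07 and 7.93 in the wild-type mice.

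Probe sets of 1 gene did not always repeat the brightest. Of 22 members with a second probe set, 12 had r above 0.9 between the brightest and the second, and 6 had r below 0.5, Dio2, Fabp3, Gpd1, Dgat1, Lipe and Pnpla2. Fabp4, Cd36 and Lpl had r of 0.994, 0.997 and 0.983. Fabp3 had r = -0.53, with a second probe set that ranged over 0.50 units. The other 13 members rest on 1 probe set each.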

How the data were processed

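The deposited values are per-array signals per probe set, taken as log2 from their range, with no statement in the labels of how the authors summarised and normalized them. No further scaling was applied. A further 36 per-array columns carry array numbers that no label maps to a sample and were not used.

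Probe sets were named by the deposited annotation, with symbols matched by Entrez identifier to RefSeq names for GRCm38.p6, and the brightest probe set over 18 arrays stood for each of 20672 genes. The arrays of mice 546 and 550 were averaged. All genes were fitted with limma 3.58.1 (R 4.3.3), with 1 coefficient per group, empirical Bayes moderation and Benjamini-Hochberg adjustment, and called at an adjusted p under 0.05. The code was tested on simulated data.

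The members and all lists were chosen with earlier results of these data known, and the kidney tubule list after the values were seen. The text names all members, up to 4 genes per other list by smallest adjusted p, and the 10 genes most like the members, of which 1 is not reported here. The number of arrays limits the precision, and nothing in the labels gives litters or batches.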

Additional observations from a re-analysis of the deposited data

Results flagged for a closer look

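Single mice stood apart from their group in 23 of 70 sets of values, each set being 1 member in 1 leukemia, by the gap to the nearest other mouse divided by the range of the group (above 0.526 for 8 samples and 0.625 for 6). Chance alone would mark about 1 in 20 groups of independent values. Members were chosen because adipocyte genes differed between samples, and the genes of 1 mouse are not independent of each other. The count therefore cannot be set against that rate, and the rule was not run over all genes. The 3 wild-type mice were too few for this check.

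Idh2R140Q/NHD13 mouse 555 was the highest of its group in 16 of these sets. Among secreted products it stood at 11.87 for Adipoq, 9.80 for Retn, 13.32 for Cfd, 5.77 for Lep and 7.71 for Rbp4. Its Cidea signal was 6.85 (next highest mouse 5.0), the only brown-specific gene of the 16. For fatty acid binding and regulation it stood at 12.61 for Fabp4, 9.00 for Fabp3, 9.99 for Ppara and 8.50 for Ppargc1a. For lipid synthesis, triglyceride assembly and droplets it stood at 7.29 for Thrsp, 10.04 for Gpd1, 11.10 for Dgat2, 13.38 for Pck1 and 8.07 for Cidec, and Cdo1 stood at 10.44. The next highest mouse was lower by the widest margin for Pck1, at 4.39.

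SCL/LMO1 mouse 3767 was highest in 6 sets, at 5.54 for Ucp1, 11.95 for Fabp4, 6.67 for Gpd1, 8.13 for Dgat2, 6.70 for Pck1 and 6.00 for Cidec. The remaining set was Ucp1 in Idh2R140Q/NHD13 mouse 559, at 4.86 against 4.35 in the next mouse, both low signals.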

How the results depend on the processing

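Of 35 members, 5 were called between the leukemias and 27 in each comparison with wild-type thymus. At an adjusted p under 0.01 the count between the leukemias was 3. With the second brightest probe set, which 22 members have, the counts were 3 between the leukemias, 8 for Idh2R140Q/NHD13 against wild-type thymus and 11 for SCL/LMO1 against it. That setting turned the direction of Fabp3 (0.25), Gpd1 (0.004), Lipe (0.224) and Pnpla2 (0.038) in Idh2R140Q/NHD13 against wild-type thymus and of Lipe (0.141) in SCL/LMO1 against it, and the cause was not tested. Array weights gave 11 between the leukemias, against 6489 of all 20672 genes. Leaving out 1 sample at a time gave 3 to 8, 19 to 31 and 15 to 32 in the order of the comparisons, the last lowest without mouse 627. Leaving out mice 627, 3767 and 555 together, chosen after seeing the data, gave 10 between the leukemias, against 4773 of all genes.

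Over all genes the counts were 4902 between the leukemias, 3596 for Idh2R140Q/NHD13 against wild-type thymus and 2390 for SCL/LMO1 against it. They were 2780, 1401 and 889 at an adjusted p under 0.01, and 2369, 1604 and 1054 with the second probe set, which fewer genes have. Array weights gave 6902 and 4827 in the comparisons with wild-type thymus. Fitting only the groups compared gave 1989 for Idh2R140Q/NHD13 against wild-type thymus, and leaving out mice 627, 3767 and 555 gave 1367 for SCL/LMO1 against it. Leaving out 1 sample at a time gave 4064 to 5357, 1382 to 5288 and 765 to 2989. Without mouse 627 the counts against wild-type thymus were 1979 and 765, and without mouse 623 they were 1382 and 1200.

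The other settings kept each of these counts within 1.5 times its value. Of the differences of single members under all settings, 2789 moved by less than the spread between samples, 101 moved by more, and the 5 named above turned round among called ones. Differences that had not been called took the other sign 54 times, in 18 of the member differences, 31 of these times with 1 sample left out. Among these, Ppara in Idh2R140Q/NHD13 against wild-type thymus was 0.10 without mouse 627, and Pck1 between the leukemias was -0.93 without mouse 555. The range of the brown-specific minus other mean over samples was 3.10, and 3.10 to 3.28 under the settings run on all samples. Leaving out 1 sample at a time, added after seeing the data, gave 1.47 to 3.10, with 1.47 without mouse 555 and 2.45 without mouse 627. It was not run with the second probe set, since Dio2 alone of the 4 genes has one. Dim genes left out kept 15149 genes and dropped Elovl3 and Aqp7. No paired analysis was possible because the groups share no replicate numbers. Signals near background limit the differences of low genes, whose folds may be understated.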
